A study of Mus musculus with 2 samples.

Results

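The transcription factors that drive epithelial-to-mesenchymal transition (EMT), Snai1, Snai2, Twist1, Twist2, Zeb1, Zeb2 and Prrx1, were followed together with Cdh2 in 2 mouse cerebellar sections that carried breast tumors. These 8 genes were given by symbol, as regulators and an adhesion molecule of EMT. The probe panel listed 19465 genes, and 7 of the 8 members were measured in both sections. Twist2 was not among the listed genes, so it has no level and only its promoter window was searched. The study asked which cells and programs surround breast cancer brain metastases, and it profiled 1 section from each of 2 biological replicates with the Visium CytAssist assay, which counts probe-tagged transcripts, as unique molecular identifiers (UMIs), in an array of spots laid over fixed tissue. Both sections came from cerebellum of mice that had received HP organoids, cultures grown from mouse mammary tumors that carried a human HER2 V777L transgene and PIK3CA H1047R, and neither mouse was treated. According to the methods, the transgene was driven by an actin promoter behind a stop element that Cre removes, Cre was given by adenovirus into the mammary gland, and the organoids were labeled with luciferase and injected into syngeneic hosts. The titles call the organoids HP-F1 in section 1 and HP-B6 in section 2, while another label reads B6-HP for both, so a difference between the sections cannot be told apart from a difference between organoid lines. The labels give no age for either mouse, and no section of a cerebellum without tumor was analysed here.

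EMT is the program by which epithelial cells lose their junctions and become motile. Snai1 and Snai2 are zinc-finger repressors, Zeb1 and Zeb2 carry zinc fingers on either side of a homeodomain, Twist1 and Twist2 are basic helix-loop-helix proteins, and Prrx1 is a homeobox protein. The Snail and Zeb proteins bind E-box sequences and silence epithelial genes such as Cdh1 and Epcam. Cdh2, which encodes N-cadherin, is the adhesion molecule that cells in EMT often take up as E-cadherin is lost. Most of these genes are also active outside carcinoma cells: fibroblasts express Twist1, Prrx1 and Snai2, microglia and oligodendrocytes express Zeb2, astrocytes and neural progenitors express Zeb1, and neurons and glia use Cdh2.

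The E-box that Snail and Zeb proteins prefer reads CAGGTG, or CACCTG on the other strand, and it was searched for in the 250 bases before the annotated start of each gene for which RefSeq promoter sequence was given (build GRCm38.p6, 32851 promoters). Of all these promoters, 17.2% held at least 1 match on either strand. The windows of Snai1 and Epcam are shown because Snai1 was the only member with a match and Epcam is the epithelial gene against which the members are correlated below. Both are on the plus strand, and capitals mark the E-box.
Snai1, chr2:167537945-167538194: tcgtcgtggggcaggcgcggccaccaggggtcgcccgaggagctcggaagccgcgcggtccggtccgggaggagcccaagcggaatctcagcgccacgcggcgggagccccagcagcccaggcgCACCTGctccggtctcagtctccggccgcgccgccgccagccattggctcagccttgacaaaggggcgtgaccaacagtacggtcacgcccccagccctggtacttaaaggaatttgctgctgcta
Epcam, chr17:87635729-87635978: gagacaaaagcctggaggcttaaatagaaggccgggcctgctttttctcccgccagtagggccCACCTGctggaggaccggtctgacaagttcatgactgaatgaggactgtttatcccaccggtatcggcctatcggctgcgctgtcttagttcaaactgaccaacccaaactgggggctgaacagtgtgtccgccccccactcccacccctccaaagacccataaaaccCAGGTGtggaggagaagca
The match in the Snai1 window began at position -126, counted from the start, and those in the Epcam window at -187 and -19. The windows of Twist1, Twist2 and Prrx1 and the 4 windows of Zeb2 had no match to these letters. No window was given for Snai2, Zeb1 or Cdh2. A match is a match of letters and was not tested for binding.

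Each section was divided into tumor, edge and neural tissue without use of the members. For every spot with at least 500 UMIs and 10 genes, the share of UMIs from 38 neuronal and glial marker genes was computed and cut in each section at 0.459% or 0.472%, spots on the low side forming the tumor. Edge spots lay within 2 array steps of a spot of the other kind. Section 1 held 641 tumor, 236 edge and 2433 neural spots, and section 2 held 653, 369 and 2893. The sections had 3406 and 4017 spots under tissue with 63986887 and 71878333 UMIs, and 96 and 102 of the spots were left out. The 3096 spot barcodes that the sections shared are positions of the same array design and not shared cells. A spot covers several cells, so a level is a mixture of the cells beneath it. Markers of cerebellum were present where the labels place them: the 6 Purkinje cell markers summed to 2784 and 4243 unscaled counts per 1000000 UMIs in neural tissue of sections 1 and 2, and the 5 measured granule neuron markers to 657 and 1293.

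The tumors of the 2 sections differed widely in their makeup. Levels are given as UMIs per 1000000 UMIs of the same region and section (CPM), scaled by trimmed mean of M values (TMM) unless said otherwise. Col1a1, a fibrillar collagen of fibroblasts and mesenchymal cells, stood at 23420 CPM in tumor of section 1 and 200.3 in tumor of section 2. Epcam, the epithelial adhesion molecule, stood at 7.06 and 2121 CPM. Summed unscaled levels followed the same split: 16 stromal markers reached 59388 CPM in section 1 and 892 in section 2, and the 13 measured epithelial markers reached 56.2 and 12793, with none of the markers at 0. The epithelial markers were thus near their level in neural tissue of section 1, 42.6 CPM, so the label of a breast tumor was not borne out by epithelial markers in section 1, and the region is called tumor there by its low neural share. The maps of the regions and of 4 members show this division and how far each gene kept to it.

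**Figure D1:**
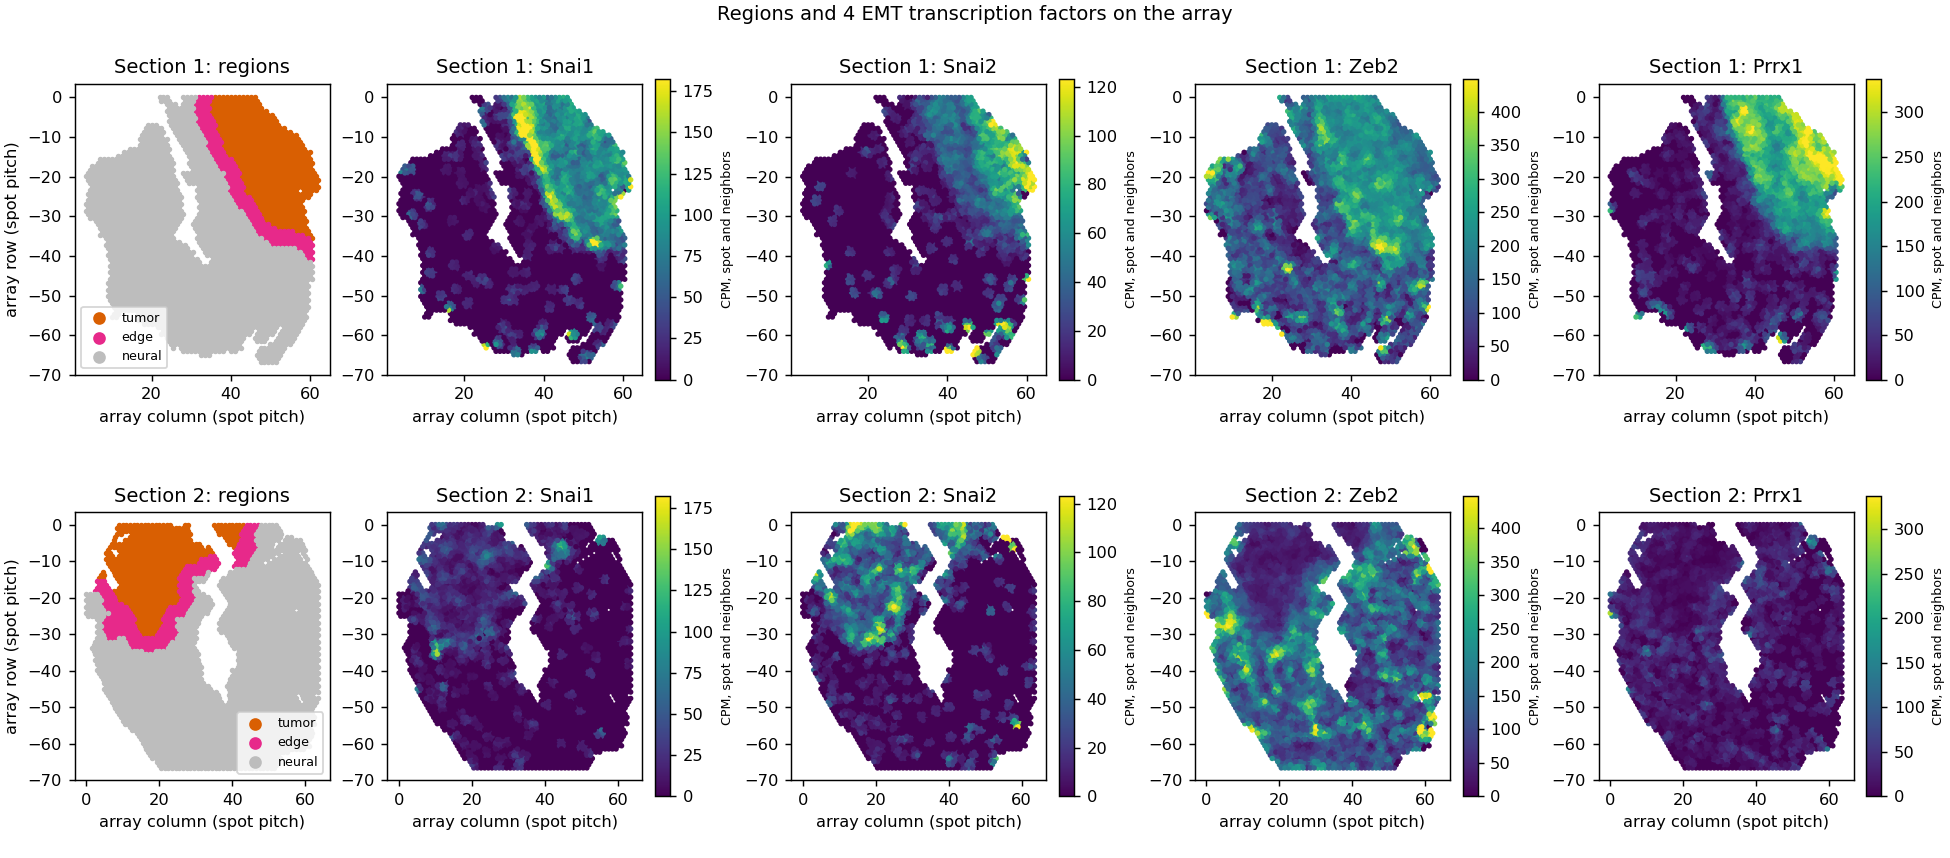
Array maps of both sections, with axes in units of spot pitch. The left panels color the spots by region, and the others color each spot by the CPM of Snai1, Snai2, Zeb2 or Prrx1 pooled over the spot and its neighbors, on 1 color scale per gene; Snai2 marked both tumors, while Prrx1 was high in the tumor of section 1 alone.

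Tumor against neural tissue asked which members set the tumor apart from the brain around it. The 3 members of the Snail and Twist families rose in both tumors, Cdh2 fell as a share of UMIs, and Zeb1, Zeb2 and Prrx1 gave no shared direction. UMIs were summed over each region of each section and tested with edgeR's quasi-likelihood test with section as a block, so that n was 2 sections and p-values were adjusted by Benjamini-Hochberg over 19218 genes. In all, 4 of the 7 measured members passed at an adjusted p below 0.05, 3 higher and 1 lower. Of all genes tested, 29.3% passed, 13.6% higher and 15.7% lower, with a median log2 fold change of -0.14. For 77.6% of them the ratio of tumor to neural tissue had the same direction in both sections. A log2 ratio above 1 in both sections was found for 1646 of the 19218 genes, and 2432 were lower by more than that in both. The share of genes with both tumors outside both neural values was not counted, so such separation of a member is description only. Fewer cells of a type and less RNA per cell cannot be told apart in such sums.

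Snai2, also known as Slug and a factor of basal mammary cells as well as of EMT, had nearly the same level in both tumors. It stood at 58.3 CPM in tumor and 5.22 in neural tissue of section 1, and at 54.2 and 6.10 CPM in section 2. Both tumors lay far above both neural regions. The log2 fold change was 3.33 ± 0.37 (SE; edgeR adjusted p = 0.0083), and the log2 ratios within the sections were 3.36 and 3.05. Snai2 passed under all 13 alternative settings that carried a test, with edgeR or DESeq2 adjusted p of at most 0.013.

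Snai1, the founding Snail factor, stood at 96.8 CPM in tumor and 7.37 in neural tissue of section 1. In section 2 the levels were 24.9 and 5.54 CPM. Both tumors were above both neural regions, with the tumor of section 1 the highest. The log2 fold change was 2.87 ± 0.51 (SE; edgeR adjusted p = 0.022). Without the section block the adjusted p of edgeR was 0.074, the highest of the 13 alternatives, and the others passed.

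Twist1, which specifies mesoderm and neural crest mesenchyme, followed the pattern of Snai1. It stood at 69.3 CPM in tumor and 4.38 in neural tissue of section 1, and at 18.0 and 2.70 CPM in section 2. The groups did not overlap. The log2 fold change was 3.36 ± 0.39 (SE; edgeR adjusted p = 0.0089), and it passed in all 13 alternatives.

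The ratio of the tumor of section 1 to that of section 2 separated Snai2 from the other factors. On the TMM scale, Snai1 was 3.88-fold higher in the tumor of section 1 (95% counting interval 3.56 to 4.24) and Twist1 was 3.84-fold higher (3.47 to 4.27), but Snai2 was 1.08-fold higher (1.003 to 1.16). These intervals cover counting error alone, and with 1 section of each tumor the difference between tumors could not be tested. In neural tissue the same ratios were 1.33 for Snai1, 1.62 for Twist1 and 0.856 for Snai2.

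Zeb1, a repressor of epithelial genes that is also active in glia and neural progenitors, stood at 49.0 CPM in tumor and 49.6 in neural tissue of section 1. In section 2 it stood at 12.97 CPM in tumor and 56.3 in neural tissue. The tumor of section 1 was level with its neural tissue, and only the tumor of section 2 was lower. The log2 fold change of -1.001 ± 0.57 (SE) did not pass (edgeR adjusted p = 0.24). Counted per spot rather than per UMI the sign turned, to a log2 fold change of 0.93 that did not pass either (edgeR adjusted p = 0.24).

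Zeb2, a factor of microglia and oligodendrocytes as well as of EMT, stood at 235 CPM in tumor and 110.2 in neural tissue of section 1. In section 2 it stood at 58.0 and 132 CPM. The sections went opposite ways, with log2 ratios of 1.09 and -1.18. Their fitted log2 fold change was 0.00 ± 0.61 (SE; edgeR adjusted p = 0.998). Macrophage and microglia markers differed between the tumors in the same direction: the 8 macrophage markers summed to 1977 CPM in the tumor of section 1 and 587 in that of section 2, and the 7 microglia markers to 1181 and 282, against 546 to 570.5 and 836 to 864 in neural tissue. A sum is weighted to its most abundant markers. The median log2 ratio of the microglia markers, tumor over neural tissue, was -0.18 in section 1 and -2.27 in section 2. For the macrophage markers it was 2.11 and 0.78. None of these markers was at 0 in any region, and their part in the Zeb2 level was not tested.

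Prrx1, a homeobox factor of limb and craniofacial mesenchyme and of fibroblasts, had the widest gap between the tumors. It stood at 249.98 CPM in tumor and 17.9 in neural tissue of section 1, and at 17.5 and 20.8 CPM in section 2. The tumor of section 1 was far above the other 3 values, and the tumor of section 2 was slightly below its neural tissue. The tumor of section 1 was 14.3-fold above that of section 2 (95% counting interval 12.9 to 15.7), and the ratio of the neural regions was 0.858. The log2 fold change of 1.62 ± 1.11 (SE) did not pass (edgeR adjusted p = 0.31). It moved beside the stromal marker sum, which was 59388 and 892 CPM in the tumors, and the share of stromal cells in the Prrx1 level was not tested.

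Cdh2 had the reverse profile of the Snail and Twist genes on the scale of CPM. It stood at 30.1 CPM in tumor and 52.3 in neural tissue of section 1, and at 34.95 and 55.6 CPM in section 2. Both tumors were below both neural regions, and the tumor of section 1 was at 0.862 of that of section 2 (95% counting interval 0.786 to 0.946; without TMM scaling 0.921, 0.840 to 1.01). The log2 fold change was -0.73 ± 0.18 (SE; edgeR adjusted p = 0.045), but per spot it was 1.22 in the opposite direction (edgeR adjusted p = 0.0094). Tumor spots held 1.53 and 1.30 Cdh2 UMIs on average and neural spots 0.560 and 0.655, while the median total per spot was 57041 and 42613 UMIs in tumor and 7710 and 9834 in neural tissue. The lower level was close to the threshold: it passed in 6 of the 12 alternatives that kept the scale per UMI, and not with DESeq2 (adjusted p = 0.071). The highest adjusted p was 0.13, by edgeR without the section block.

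**Figure D2:**
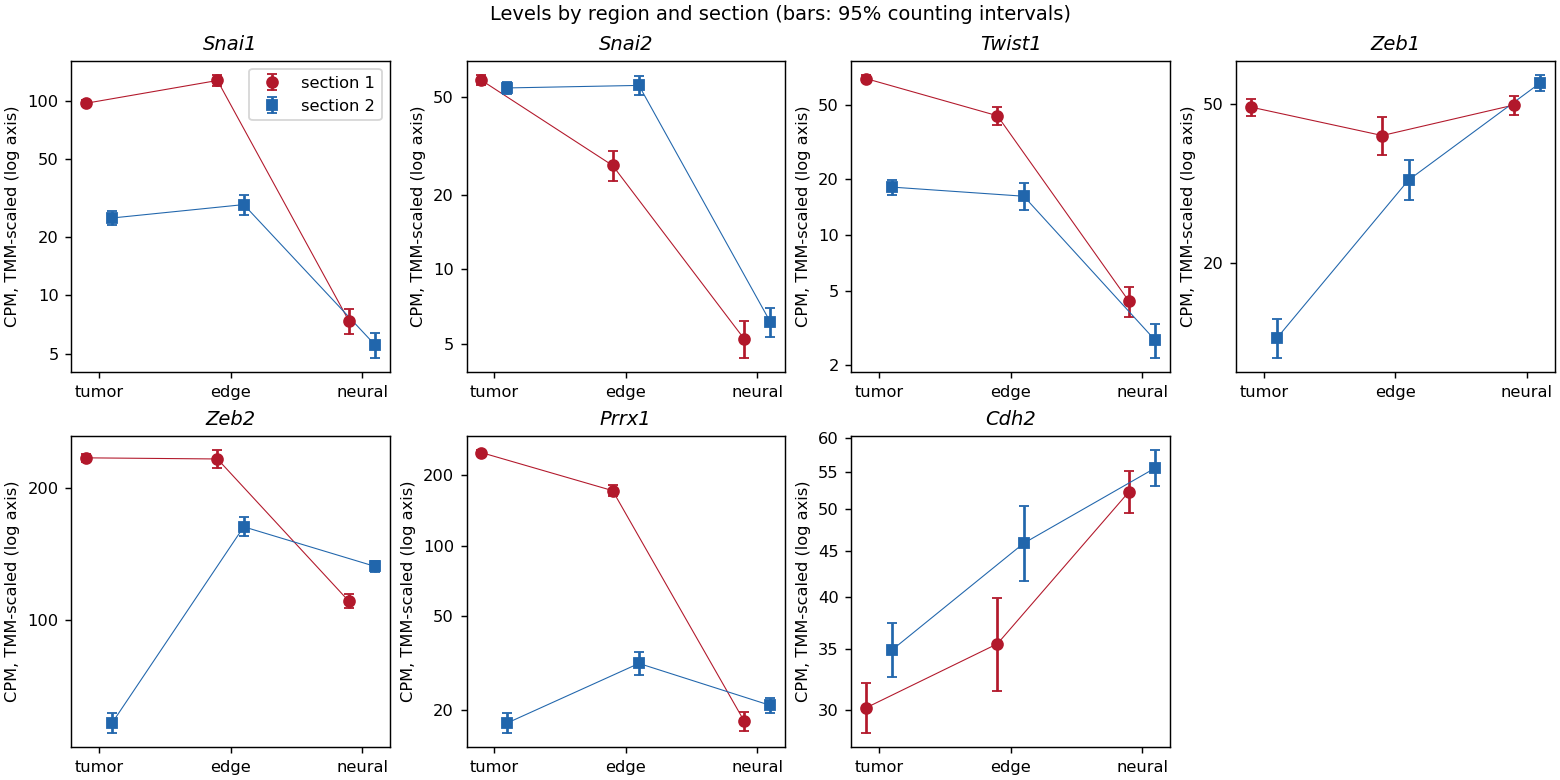
Level of each measured member in tumor, edge and neural tissue, as TMM-scaled CPM on a log axis, with circles for section 1, squares for section 2 and bars for 95% counting intervals. Snai1, Snai2 and Twist1 were higher in tumor and edge than in neural tissue in both sections, and Zeb2 and Prrx1 split by section.

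Edge against neural tissue asked whether the rim carried the same factors. It did for the Snail and Twist genes, in an edge that took in the outermost tumor spots. Of the 7 members 3 passed, all higher, where 17% of all genes passed, 8.1% higher and 8.93% lower. Snai1 stood at 127 CPM in the edge of section 1 and 29.2 in that of section 2, the highest region in each section by CPM. In UMIs per spot the tumor was higher, with 4.92 and 0.928 against 4.21 and 0.743 in the edge. Tumor against edge did not pass for Snai1 (edgeR adjusted p = 0.90). The log2 fold change of Snai1 in the edge over neural tissue was 3.19 ± 0.52 (SE; edgeR adjusted p = 0.029). Snai2 stood at 26.3 and 55.5 CPM, with a log2 fold change of 2.80 ± 0.37 (SE; edgeR adjusted p = 0.020). Twist1 stood at 43.7 and 16.1 CPM, with a log2 fold change of 2.92 ± 0.38 (SE; edgeR adjusted p = 0.020). All 6 of these edge values were above every neural value of the same gene. Of all genes tested, 77.2% had the same direction of edge over neural tissue in both sections. A log2 ratio above 1 in both was found for 1636 genes, and 1942 were lower by more than that in both. The share so separated was not counted, so the separation is description only. Without the section block Snai1 and Twist1 no longer passed (edgeR adjusted p = 0.079 for each, the highest of 13 alternatives). On the neural side of the edge alone, unscaled levels in sections 1 and 2 were 105 and 26.5 CPM for Snai1. Snai2 had 16.6 and 34.0 there, and Twist1 had 24.3 and 10.5. Unscaled levels in neural tissue were 8.92 and 5.85 for Snai1, 6.32 and 6.44 for Snai2, and 5.30 and 2.85 for Twist1. The sides of the edge were not tested apart.

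The other members did not pass in the edge. Zeb2 stood at 234 and 163 CPM, above neural tissue in each section, with a log2 fold change of 0.61 ± 0.58 (SE; edgeR adjusted p = 0.50). Prrx1 stood at 172 and 31.5 CPM, with a log2 fold change of 1.53 ± 1.04 (SE; edgeR adjusted p = 0.36). Zeb1 stood at 41.6 and 32.2 CPM and Cdh2 at 35.5 and 45.9, each below neural tissue in both sections. Their log2 fold changes were -0.59 and -0.42, and both turned positive per spot, to 0.71 and 0.95 (edgeR adjusted p = 0.36 and 0.032).

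Tumor against edge gave 0 of 7 members and 0% of all genes by edgeR; at an unadjusted p below 0.05 it was 0 members and 1665 genes, and DESeq2 gave 0 members and 757 genes. The edge holds spots from both sides of the border, so its levels mix those of tumor and brain. Adjusted p-values by edgeR ran from 0.76 for Cdh2 to 0.99 for Prrx1.

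**Figure D3:**
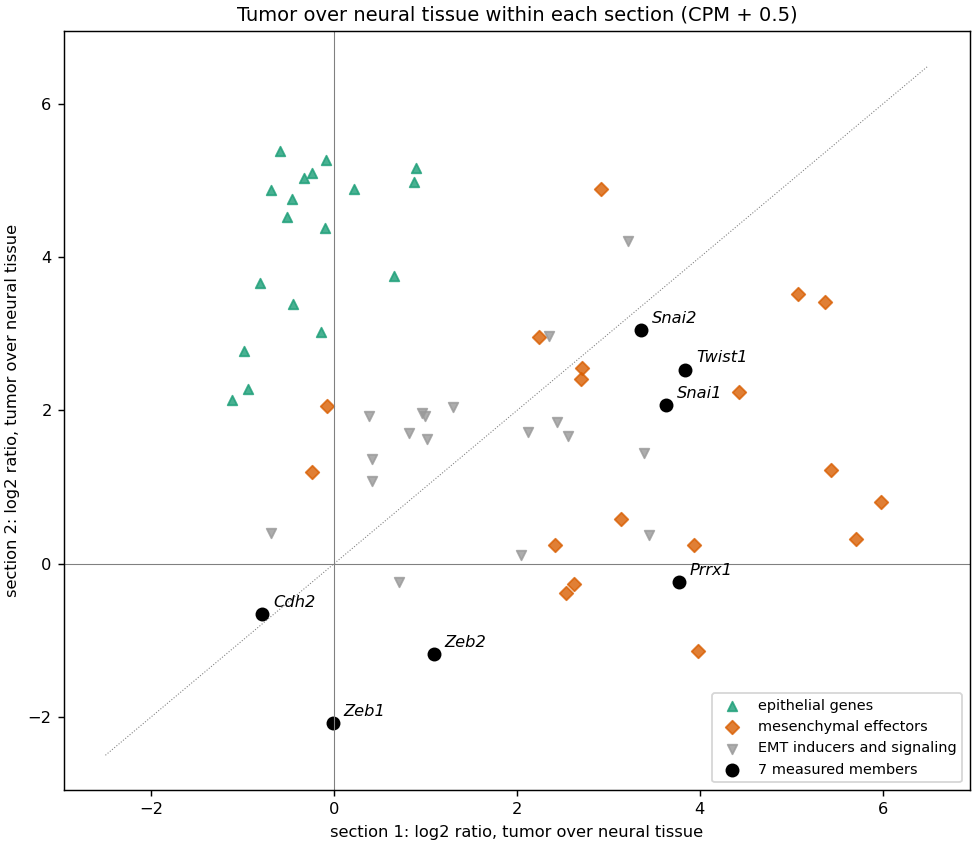
Log2 ratio of tumor over neural tissue in section 1 (x axis) and section 2 (y axis) for the 7 measured members and 3 lists of EMT genes, from TMM-scaled CPM with 0.5 added; the dotted line marks equal ratios. Snai1, Snai2 and Twist1 lay above 2 in both sections, Prrx1 at 3.77 and -0.24, and the epithelial genes were high in section 2 only.

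Levels by distance resolved the border more finely, in array steps from it and as unscaled CPM, as a description with no test. The members followed different courses. Snai1 in section 1 was highest on the last row of the tumor, at 149 CPM (95% counting interval 133 to 167), against 90.4 at 10 steps or more inside. The second row had 138 CPM, with an overlapping interval (125 to 152). In Snai1 UMIs per spot the last row had 5.44, the second row 6.91 and the deepest bin 4.27. The third to sixth rows had 5.66 to 6.78, so the last row was highest in CPM only. On the neural side Snai1 was still 117 CPM at the first step and 35.5 at the third. In section 2 it stayed between 16.0 and 31.9 CPM from deep tumor to the first neural step.

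Snai2 ran the other way in section 1 and was higher with depth, from 29.3 CPM at the border to 71.0 at 10 steps or more (95% counting interval 66.9 to 75.3). In section 2 it was highest in the second tumor row, at 72.9 CPM, with 30.8 at the fifth row and 52.3 deepest. In CPM, Snai1 and Snai2 were thus highest at opposite ends of the tumor of section 1. Twist1 had no such slope in section 1, with 60.8 to 68.1 CPM from the deepest bin to the second row and 44.7 at the border.

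The course of Zeb2 differed between the sections. In section 1 it lay between 199 and 257 CPM from deep tumor to the sixth neural step and was 108 at 10 steps or more. In section 2 it was 39.9 to 50.01 CPM in the 6 deepest bins, 140.0 at the tumor border, 213 at the third neural step and 127 in far neural tissue. The summed macrophage markers had a like crest near the border, 1839.5 CPM at the second neural step of section 2 against 580 deep in the tumor and 378 far from it, and in section 1 they reached 2589 CPM at that step. The summed microglia markers of section 1 were highest at the fourth neural step, at 2216 CPM. They were at 1242 CPM deepest in that tumor and 431 far from it. The part of macrophages and microglia in the Zeb2 course was not tested.

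Zeb1 and Prrx1 were both lower inside the tumor of section 2 than at its border, but differed beyond it. Zeb1 was 6.0 to 14.8 CPM from the deepest bin to the third row, 31.6 at the border and 62.7 in far neural tissue, whereas section 1 had no such dip (32.2 to 64.2 CPM throughout). Prrx1 was 7.1 to 18.5 CPM in the 9 deeper bins of section 2, 27.4 to 39.2 from the border to the ninth neural step and 18.7 in far neural tissue, near its deepest tumor level of 18.3. In section 1 it went from 192 CPM at the border to 15.2 in far neural tissue. Cdh2 went from 27.4 CPM deep in the tumor of section 1 to 70.1 in far neural tissue and from 32.3 to 59.2 in section 2, with no crest at the border.

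**Figure D4:**
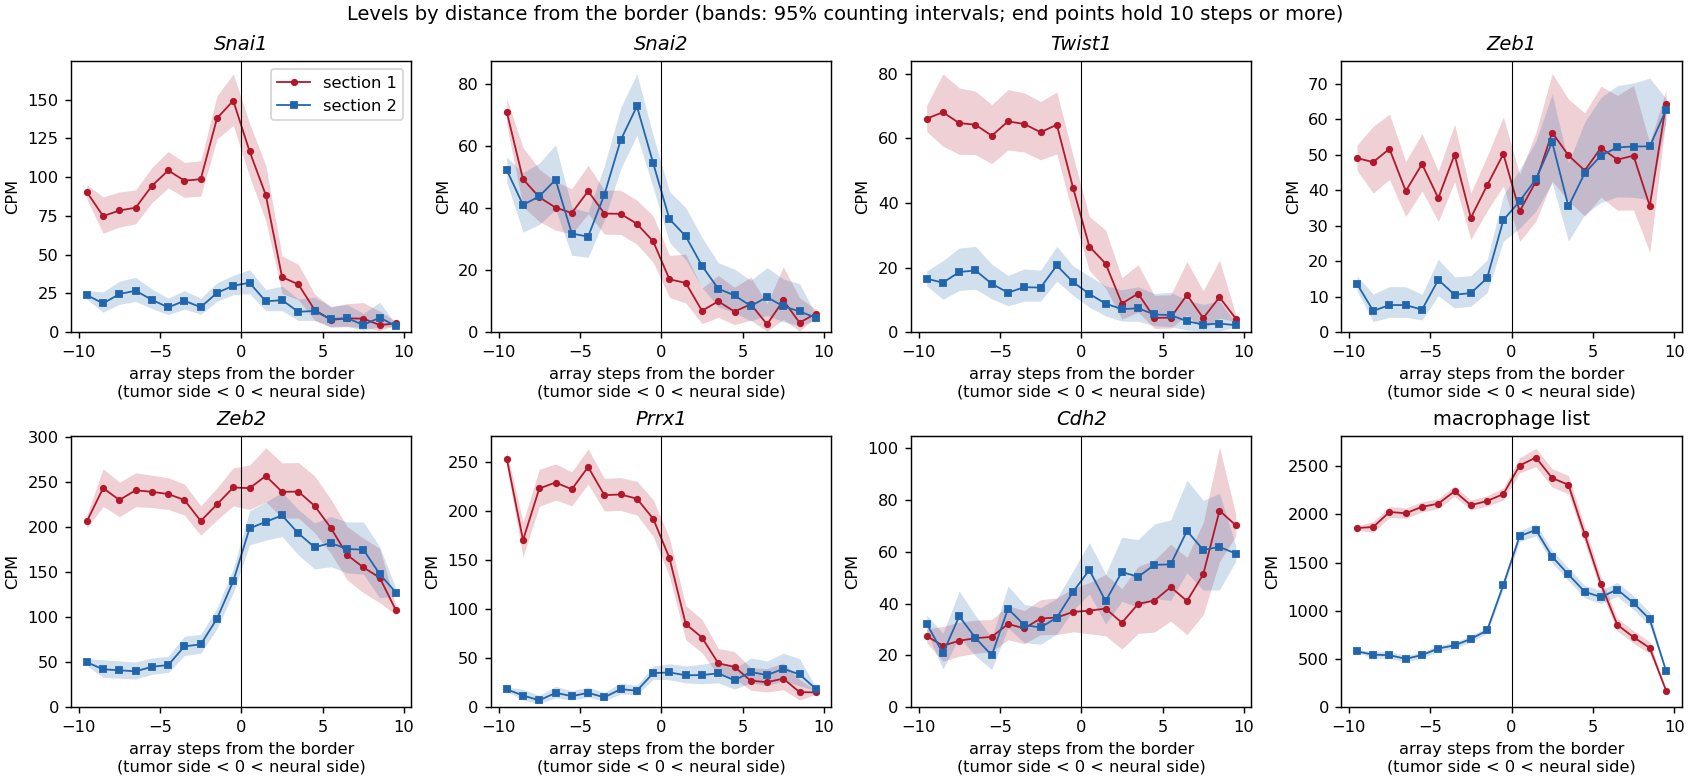
CPM of each measured member and of the summed macrophage markers by distance from the border in array steps, negative on the tumor side, with shaded 95% counting intervals; the end points hold all spots 10 steps or more away. Snai1 crested at the border of section 1 at 149 CPM, Snai2 was higher with depth there, and Zeb2 crested on the neural side of section 2 at 213 CPM. In UMIs per spot, Snai1 of section 1 was at 5.44 in the last tumor row and 6.91 in the second.

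Within the tumors, the members were set against Col1a1 and Epcam by Spearman's rho over tumor spots, 641 in section 1 and 653 in section 2, on CPM per spot. Spots of a section share a library and neighbors share cells, so these are descriptions with no p. In section 2, Zeb1, Zeb2 and Prrx1 went with Col1a1 and against Epcam. Their rho with Col1a1 was 0.20, 0.22 and 0.24, and with Epcam -0.27, -0.27 and -0.20. Cdh2 had the same signs at 0.14 and -0.17, and Snai1 at 0.14 and -0.11. Snai2 and Twist1, the members with the highest fold over neural tissue, had rho within 0.04 of 0 with both genes. Over the 15124 genes found in at least 5% of these spots, rho ran from -0.12 to 0.12 with Col1a1 and from -0.19 to 0.15 with Epcam between the 5th and 95th percentiles. Epcam and Col1a1 had rho of -0.24 with each other in these spots, so the 2 sets of correlations are not independent.

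Pooled levels showed the size behind these ranks. The tumor spots of section 2 were put into 4 equal groups by Epcam. From the group lowest in Epcam to the highest, Zeb1 went from 20.4 to 5.8 CPM and Prrx1 from 26.5 to 8.8. Zeb2 went from 76.8 to 39.8 CPM and Cdh2 from 44.1 to 24.0. Snai1 went from 28.7 to 20.5 CPM, with 95% counting intervals that did not overlap. Snai2 was 48.0 and 43.2 CPM and Twist1 14.8 and 13.4, with overlapping 95% counting intervals. From the lowest to the highest of 4 such groups by Col1a1, Prrx1 went from 8.1 to 26.3 CPM, Zeb1 from 8.5 to 18.7 and Cdh2 from 21.4 to 42.6. Zeb2 went from 40.2 to 65.1 CPM and Snai1 from 16.3 to 28.4 over these groups. Snai2 was 47.7 and 42.8 CPM and Twist1 15.1 and 17.8, with overlapping intervals.

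Markers of other cell types moved with the same members in section 2. In tumor spots of section 2, the 7 endothelial markers had rho of 0.32 with Prrx1, 0.30 with Zeb1, 0.25 with Cdh2 and 0.23 with Zeb2. Zeb2 had rho of 0.41 with the macrophage list, 0.41 with the oligodendrocyte list and 0.37 with the microglia list. Snai1, Snai2 and Twist1 had 0.19, 0.03 and 0.07 with the endothelial list. Other lists reached like values. For Prrx1, Zeb1, Cdh2 and Zeb2 in that order, the stroma list had 0.28, 0.23, 0.18 and 0.28. The pericyte and smooth muscle list had 0.24, 0.25, 0.18 and 0.21, and the granule neuron list 0.17, 0.21, 0.08 and 0.28. In tumor spots of section 1 the endothelial list had -0.16, 0.01, -0.01 and 0.09 with these members in the same order. The stroma list had 0.30, 0.11, -0.01 and -0.11. The pericyte and smooth muscle list had -0.10, -0.08, 0.01 and 0.06, and the granule neuron list -0.27, -0.07, 0.06 and 0.03. Zeb2 had 0.19 there with the macrophage list, 0.12 with the oligodendrocyte list and 0.005 with the microglia list. The part of these cells in the correlations was not tested.

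In section 1, Epcam was found in 29.2% of tumor spots, against 3.66% of the shallower neural spots, with at most 3 UMIs in a spot, so its correlations there carry little information. They lay between -0.08 and 0.09. With Col1a1, found in every tumor spot, rho was 0.18 for Prrx1, 0.16 for Snai1, 0.14 for Twist1 and 0.09 for Zeb1, where 90% of the 17780 genes compared lay between -0.08 and 0.11. Over 4 equal groups of these spots by Col1a1, from the lowest to the highest, Prrx1 went from 203.5 to 249 CPM, Snai1 from 83.5 to 101 and Twist1 from 60.6 to 72.6, with 95% counting intervals of the end groups that did not overlap. After thinning every spot to 10000 UMIs, which leaves fewer counts of each gene, rho was 0.0037 for Prrx1, 0.0085 for Snai1, 0.077 for Twist1 and -0.025 for Zeb1. In section 2 thinning left Prrx1 at 0.14, Zeb2 at 0.03 and Cdh2 at 0.03 with Col1a1, and Zeb2 at -0.09 with Epcam.

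**Figure D5:**
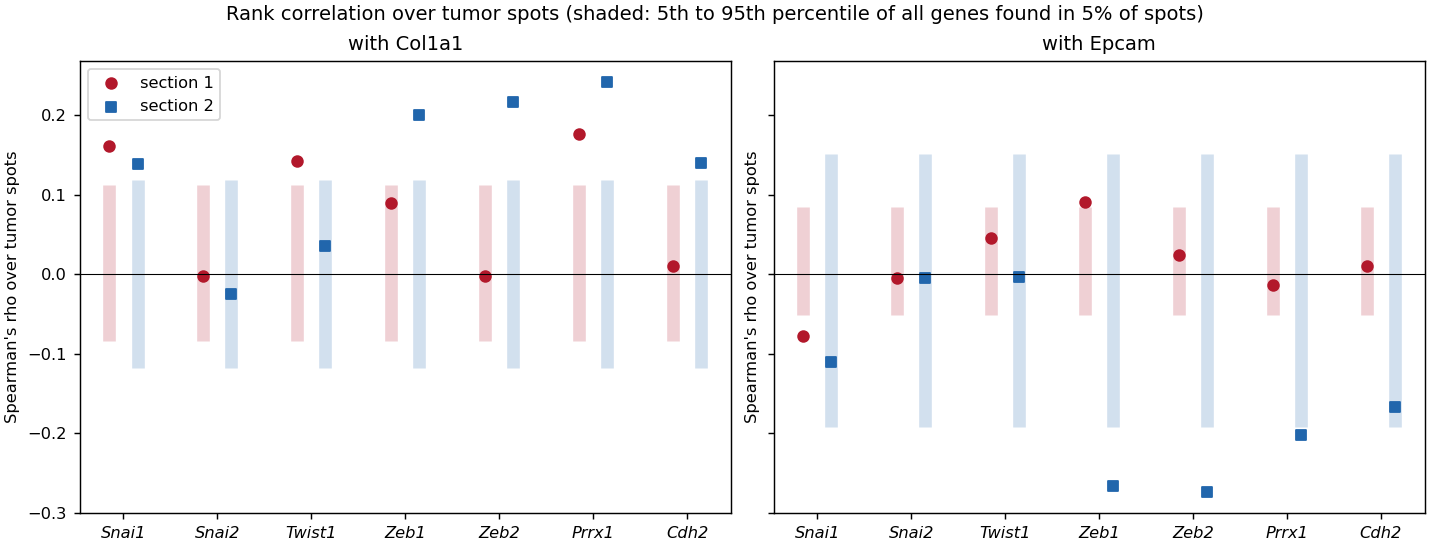
Spearman's rho of each measured member with Col1a1 (left) and Epcam (right) over tumor spots, circles for section 1 and squares for section 2. Shaded bars span the 5th to 95th percentile of all genes found in at least 5% of the spots. Zeb1, Zeb2 and Prrx1 of section 2 lay outside that range in both panels, where Epcam and Col1a1 had rho of -0.24 with each other.

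The members were weakly tied to each other from spot to spot. Among the 21 pairs, rho ran from -0.11 to 0.14 in tumor spots of section 1 and from -0.05 to 0.23 in those of section 2. The highest values of section 2 were Zeb2 with Prrx1 at 0.23, Zeb1 with Zeb2 at 0.19 and Zeb1 with Prrx1 at 0.16. Snai1 and Snai2 had rho of 0.07 and -0.03. Few counts per spot draw rho toward 0. In tumor spots of section 2, Twist1, Zeb1 and Prrx1 averaged 0.67, 0.48 and 0.65 UMIs.

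Across all tumor, edge and neural spots, 3310 and 3915, the genes most like each member were ranked by the lower rho of the 2 sections among 13472 genes. The tumor and brain contrast dominates this measure. For Snai2 they were Postn, a matricellular protein (0.72 and 0.62), Ltbp1, a binder of latent TGF-beta (0.70 and 0.60), and the water channel Aqp5 (0.62 and 0.59). For Snai1 they were the desmosomal Pkp1 (0.63 and 0.47), the transcription factor Runx3 (0.74 and 0.47) and Dynap (0.60 and 0.47). For Twist1 they were Dynap (0.64 and 0.47), Anxa8 (0.58 and 0.46) and Postn (0.76 and 0.46). For Prrx1 they were the mesenchymal filament gene Vim (0.68 and 0.26), the protease inhibitor Timp1 (0.63 and 0.24) and the hyaluronan receptor Cd44 (0.63 and 0.22). For Zeb2 they included Apoe (0.38 and 0.33) and the complement gene C1qa (0.39 and 0.28). Zeb1 and Cdh2 had no gene above 0.12 in both sections, B4galt5 and Trappc6b leading at 0.11 in the lower section.

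Other genes of the pathway were counted in 4 lists, where 13.6% of all genes tested rose in tumor over neural tissue and 15.7% fell. Of 13 other EMT transcription factors, 4 rose in tumor over neural tissue and none fell, with a median log2 fold change of 1.56 beside -0.14 over all genes: Tcf3, Sox4, Hmga2 and Runx2, the last 2 named after their values were seen. Sox4, a progenitor factor induced by TGF-beta, stood at 55.6 and 196 CPM in tumor and 11.1 and 15.1 in neural tissue (log2 fold change 3.01 ± 0.40, SE; edgeR adjusted p = 0.011). Runx2, a factor of bone and mammary epithelium, stood at 60.3 and 55.2 CPM in tumor and 6.84 and 6.01 in neural tissue (log2 fold change 3.17 ± 0.19, SE; edgeR adjusted p = 0.0042). Tcf3 had a log2 fold change of 1.56, and Sox9 and Tcf4 did not pass (edgeR adjusted p = 0.14 and 0.22).

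Of 18 inducers and signaling genes, 11 rose in tumor, where 13.6% of all genes tested rose. None fell, and the median log2 fold change was 1.48. Tgfbr2, the type II receptor of TGF-beta, stood at 518 and 191 CPM in tumor and 48.9 and 69.9 in neural tissue (log2 fold change 2.40 ± 0.54, SE; edgeR adjusted p = 0.037). Skil, a TGF-beta target that restrains Smad signaling, also rose (1.46 ± 0.29, SE; edgeR adjusted p = 0.027), and Ctnnb1 and Hif1a did not pass. Of 18 mesenchymal effectors, 7 rose and none fell. Fn1, the matrix protein fibronectin, stood at 7275 and 3057 CPM in tumor against 216 and 266 (log2 fold change 4.23 ± 0.57, SE; edgeR adjusted p = 0.012). Vim, Sparc and Spp1 did not pass, Sparc being at 6370.3 CPM in the tumor of section 1 and 917 in that of section 2. In the edge the counts of genes that rose were 4, 9 and 7 for these 3 lists, where 8.1% of all genes tested rose. DESeq2 passed more, 8 transcription factors and 13 mesenchymal effectors in tumor, all higher. The share of all genes that DESeq2 passed in tumor is not given here, so an excess over it cannot be read from these counts.

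Of 18 epithelial genes that EMT programs silence, 0 passed in tumor by edgeR, with 0 at an unadjusted p below 0.05. DESeq2 passed 4, all higher, and its share of all genes is not given here. The list had a median log2 ratio of -0.39 in section 1 and 4.64 in section 2. Cdh1, the gene of E-cadherin and named after its values were seen, stood at 7.31 CPM in the tumor of section 1 and 487 in that of section 2. Cldn7 stood at 2.00 and 1430 CPM and Cldn4 at 3.01 and 1029.6 CPM. The ratio of the tumors, section 1 over section 2, was 0.0150 for Cdh1 (95% counting interval 0.0131 to 0.0170) and 0.862 for Cdh2. Snai2, at 58.3 and 54.2 CPM, was likewise near level between a tumor with Cdh1 and one where Cdh1 stood at 7.31 CPM. The other measured factors were higher in the tumor of section 1. The ratios were 3.88 for Snai1, 3.84 for Twist1, 3.78 for Zeb1, 4.05 for Zeb2 and 14.3 for Prrx1. With 1 section of each tumor, a link between any member and Cdh1 was not tested.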

How the data were processed

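Formalin-fixed cerebellum with HP tumors was profiled, 1 section from each of 2 mice, on Visium CytAssist arrays. Per the labels, the authors processed the reads with Space Ranger 2.1.1 against mm10, and what they deposited for each section is a matrix of UMI counts, genes by spots, that was not scaled. The probe panel measures a gene through a few short targets, so levels were not compared between genes. The members and lists were chosen with earlier results of these data known. The study's spot clusters were not used here, and its region of interest was not applied.

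Spots were assigned to regions by marker share (Otsu's method, majority over up to 6 neighbors, connected groups under 50 spots left out). UMI counts were summed into 6 libraries of 7667810 to 34760354 UMIs, at which counting error is small for all but rare transcripts. Genes passing filterByExpr were tested with edgeR 4.0.16 (TMM, robust quasi-likelihood, section as a block, 2 residual degrees of freedom, 3 comparisons) in R 4.3.3. Each SE given with a log2 fold change is that change, without sign, divided by the square root of the test's F statistic. The regions of a section come from the same mouse, and the block lowered the common dispersion from 0.182 to 0.0938. Genes were named by rule: the members, Col1a1, Epcam, the 4 of highest mean CPM in each pathway list, and the 3 most like each member, with exceptions said in the text. One gene that the rule names is not reported here. Counting intervals are 95% Poisson or binomial intervals. Alternatives were DESeq2 1.42.0, other scalings, filters, edge widths, marker sets and omission of a section.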

Additional observations from a re-analysis of the deposited data

How the results depend on the processing

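Snai2 and Twist1 in tumor kept their direction and call in every alternative with a test. For Cdh2 in tumor over neural tissue (log2 fold change -0.73), adjusted p was 0.070 with RLE factors, 0.071 with DESeq2, 0.062 with a 1-step edge, 0.10 with the edge set by marker share, 0.058 with neuronal markers alone and 0.13 without the replicate block. Without the replicate block, members that passed numbered 2 in tumor and 1 in the edge against neural tissue, and all genes 3479 and 1930. DESeq2 gave 4988 genes for edge against neural tissue and 757 for tumor against edge, and the edge split in 2 libraries gave 5603 and 433, where edgeR gave 3273 and 0. For edge against neural tissue DESeq2 passed 15 mesenchymal effectors where edgeR passed 7. Scaling moved the median gene: library size alone put it at -0.46 in tumor and -0.30 in edge over neural tissue, with 1708 higher and 5034 lower and 1126 and 2318, against 2622 and 3010 and 1557 and 1716 with TMM. UMIs per spot put it at 1.81 and 1.27, with 15615 genes (14723 higher) and 10349 (9990 higher), and Prrx1 then passed in tumor (3.47). Relative to those medians Cdh2 stayed lower. Per spot, log2 fold changes of opposite sign were 0.93 (Zeb1) and 1.22 (Cdh2) for tumor over neural tissue, 0.71 and 0.95 for edge over neural tissue, and 0.26 (Snai1), 0.22 (Zeb1), 0.024 (Zeb2) and 0.27 (Cdh2) for tumor over edge. With library size alone they were -0.32 for Zeb2 in tumor over neural tissue, and -0.028 for Prrx1 and -0.10 for Col1a1 in tumor over edge, where a 1-step edge gave -0.021 for Prrx1. Leaving out a section left a ratio with no test. Tumor over neural tissue ran from -1.18 to 1.09 for Zeb2 and from -0.24 to 3.77 for Prrx1. Tumor over edge ran from -0.034 to 1.13 for Snai2, -1.28 to 0.23 for Zeb1, -1.49 to 0.0086 for Zeb2, -0.83 to 0.54 for Prrx1 and -0.76 to 0.47 for Col1a1. Of 168 alternative correlations, 34 moved by over 0.10. The cause of these shifts was not tested.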
